A study of Rattus norvegicus with 17 samples.

Results

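Endothelial cells line the vessels between the muscle fibres of the heart, and some are carried into cultures made from it. Their marker genes were followed here in cultured heart cells under uremic plasma. The 10 genes chosen were Kdr, Flt1, Pecam1, Cdh5, Tek, Tie1, Vwf, Eng, Nos3 and Esam, a list of names with no measured value in its rule, drawn up with earlier results of these data known. Each gene was read from its probe set of highest mean level over all arrays, and 9 of the 10 could be read, among 14506 genes on the arrays. Each of the 9 had 1 probe set, and Vwf, which encodes von Willebrand factor, was not analysed here.

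The cultures were ventricular myocytes of newborn Sprague-Dawley rats, described as 5 days old, and total RNA of each sample was hybridised to 1 Affymetrix array. Phenylephrine (PE), which stimulates alpha-adrenergic receptors and enlarges myocytes in culture, was given to 2 samples. Uremic plasma, from people with kidney failure, made up 10% of the culture in 6 samples with plasma taken after nocturnal hemodialysis (NHD, dialysis given overnight) and in 6 with plasma taken before it. Control plasma was given to 3 samples, with its share not given in the labels, and neither is the medium of the PE cultures. The labels name the samples biological replicates without naming a culture, litter or plasma donor, so p-values measure the spread between these samples, which may be technical. Before NHD samples 2 and 3 carry the number 1 in their titles beside their own, and whether they share a source with sample 1 cannot be told from the labels. They were counted as separate samples, and calls that ended when samples 1 to 3 were averaged into 1 are named beside the results.

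Several of these genes form receptor systems. Vascular endothelial growth factor (VEGF) signals mainly through the kinase receptor encoded by Kdr, and Flt1 encodes a receptor that binds the same ligand tightly and can act as a decoy. Tek encodes the receptor of the angiopoietins and Tie1 its partner, Eng encodes endoglin, a co-receptor for bone morphogenetic proteins, Cdh5, Pecam1 and Esam encode adhesion proteins of the junctions between endothelial cells, and Nos3 encodes the endothelial nitric oxide synthase. None of them is strictly endothelial: Eng, for instance, is also made by fibroblasts and other mesenchymal cells. In bulk RNA, fewer cells of a type and less RNA per cell cannot be told apart.

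Values are log2 levels after RMA (robust multi-array averaging), so that 1 unit is a doubling, and the level of a gene is compared only with itself on other arrays. Values in the whole table ran from 1.28 to 14.29 with quartiles of 5.62, 6.97 and 8.93, and array medians lay between 6.89 and 7.03. All values of Cdh5 and Tie1 were below that middle quartile. So were those of Nos3 except on PE array 1 (7.14), and of Pecam1 except on before NHD array 3 (7.0). The file has no detection call, so part of the signal of these genes may be background. The same limit holds for genes named below whose mean over all arrays was under that of the middle probe set. Among those that passed in a comparison were Nostrin, Bmp10, Gdf2, Erg, Plvap, Cd34, Cd93, Thbd, Slc4a1, Aldh1a2 and Krt19. Myocyte markers (10 genes, among them Myh6, Tnnt2 and Ryr2) averaged 13.10 to 13.11 in PE cultures and 13.19 to 13.33 after NHD. They averaged 12.83 to 13.23 before NHD and 12.80 to 12.83 with control plasma. Scatter between arrays was widest before NHD, with a median SD per probe set of 0.0941 with PE, 0.160 after NHD, 0.249 before NHD and 0.139 with control plasma. These come from 2, 6, 6 and 3 arrays, in that order. A median SD tends to be lower with fewer arrays, so those of PE and control are not strictly comparable with the others.

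The sequences before the transcription start are shown for Kdr, Eng and Flt1, the 3 genes with the widest spread before NHD, because Eng and Flt1 varied together over the arrays and Kdr did not. They are the 250 bases upstream of the start in RefSeq (assembly GRCr8, plus strand), which held 5 of the 10 genes. Capitals mark the core GGAA, read as TTCC on the other strand, to which ETS factors such as ERG and FLI1 bind. The stretches are chr14:32571813-32572062 for Kdr, chr3:36332029-36332278 for Eng and chr12:12333180-12333429 for Flt1.
Kdr: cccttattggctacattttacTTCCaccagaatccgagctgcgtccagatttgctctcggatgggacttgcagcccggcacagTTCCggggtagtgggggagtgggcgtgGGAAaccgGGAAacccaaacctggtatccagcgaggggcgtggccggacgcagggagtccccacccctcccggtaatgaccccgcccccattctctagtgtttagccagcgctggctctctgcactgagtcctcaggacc
Eng: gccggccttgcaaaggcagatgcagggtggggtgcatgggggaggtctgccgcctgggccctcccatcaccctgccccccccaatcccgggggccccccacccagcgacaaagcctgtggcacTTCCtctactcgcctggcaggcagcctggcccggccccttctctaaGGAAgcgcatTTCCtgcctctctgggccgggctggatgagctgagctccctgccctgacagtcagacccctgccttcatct
Flt1: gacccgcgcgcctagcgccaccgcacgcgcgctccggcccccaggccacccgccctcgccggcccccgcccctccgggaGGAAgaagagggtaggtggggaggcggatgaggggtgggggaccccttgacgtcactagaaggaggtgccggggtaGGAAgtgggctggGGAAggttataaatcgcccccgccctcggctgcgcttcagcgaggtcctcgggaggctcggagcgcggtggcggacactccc
The core occurred 4 times before Kdr, 3 times before Eng and 3 times before Flt1, and it is common: 93.2% of 33469 rat promoters of the same length hold at least 1, with a median of 3. The GC box GGGCGG, searched on both strands, was found 3 times before Flt1, 1 time before Kdr and 0 times before Eng, and in 30.5% of all promoters. The letters TATAAA were found before Flt1 only among these 3, and in 12.9% of all promoters. A match is a description of letters and not a bound site. G and C made up 61.6% of the stretch before Kdr, 68% before Eng and 73.2% before Flt1.

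**Figure D1:**
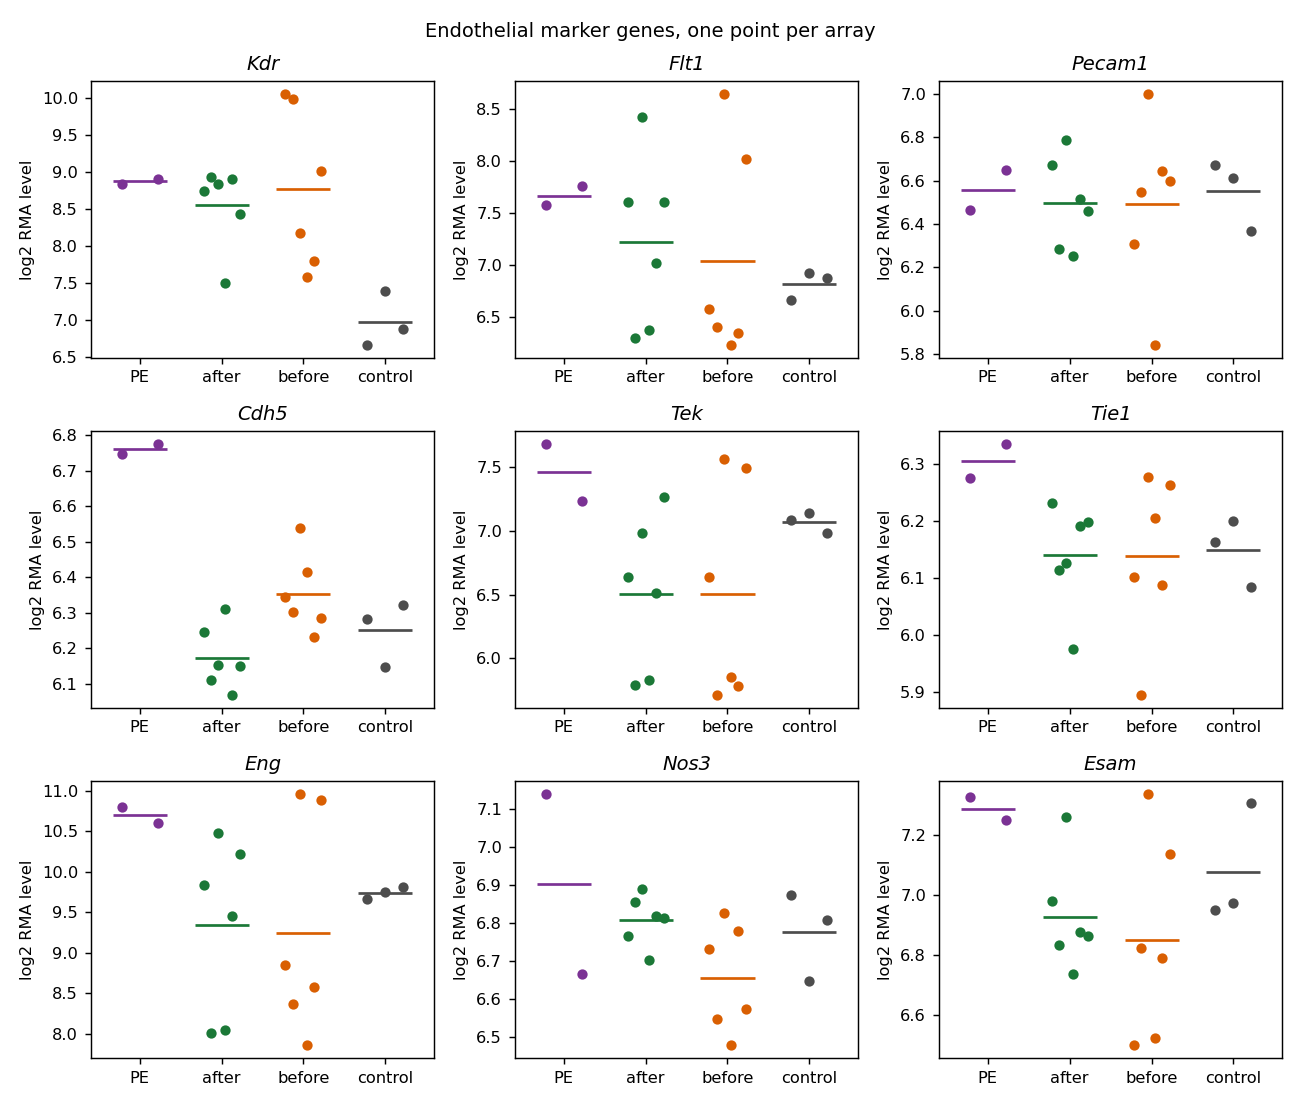
Log2 RMA level (vertical axis, with its own range in each panel) of the 9 endothelial marker genes, 1 point per array, in PE (2 arrays), after NHD (6), before NHD (6) and control plasma (3); the line is the group mean. Kdr is lower on all 3 control arrays than elsewhere, Cdh5 is highest on the 2 PE arrays, and Eng, Tek and Flt1 spread widely within the uremic plasma groups.

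Kdr was higher than in control cultures under both uremic plasmas and under PE, by 3.0- to 3.72-fold. Its level was 8.83 and 8.90 on the PE arrays. After NHD it had a lowest value of 7.50, a median of 8.79 and a highest value of 8.93. Before NHD these were 7.58, 8.59 and 10.05, and the control arrays had 6.66, 7.39 and 6.87. All 14 arrays of the other groups lay above the highest control array. Among all genes, every array was above every control array for 29.9% with PE, 18.5% after NHD and 4.47% before NHD.

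Against control, the differences of Kdr were 1.89 ± 0.63 log2 units (SE) for PE (adjusted p = 0.0458), 1.58 ± 0.49 after NHD (adjusted p = 0.0237) and 1.79 ± 0.49 before NHD (adjusted p = 0.046), by limma's moderated test with Benjamini-Hochberg adjustment over 29214 probe sets and a threshold of 0.05. The 3 comparisons share the control arrays. By size of mean, Kdr ran from PE (8.87 ± 0.05, SD, n = 2) through before NHD (8.77 ± 1.09, n = 6) and after NHD (8.56 ± 0.55, n = 6) to control (6.97 ± 0.37, n = 3). The first 3 of that order were not told apart: after minus before NHD was -0.21 (95% interval -1.05 to 0.64), PE minus before NHD 0.10 (-1.09 to 1.30) and PE minus after NHD 0.31 (-0.88 to 1.5).

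Kdr was the 1 of 9 genes to pass in either uremic plasma comparison with control, and 0 of 9 fell. Among all genes, 3.75% were higher and 2.09% lower before NHD than with control plasma, and 16.7% were higher and 16.3% lower after NHD. The share of 1 in 9 is therefore near the background after NHD. The call before NHD lay close to the threshold: it was lost in 13 of the 17 fits that left out 1 array, also without arrays of groups not compared, while the difference stayed between 1.53 and 2.03. Adjusted p reached 0.209 without control array 1, 0.183 without control array 3, 0.0844 without before NHD array 6 and 0.0817 without before NHD array 2. Without control array 1 or 3, 0 of 29214 probe sets passed in this comparison, against 1439 with all arrays. The losses without those control arrays were therefore not particular to Kdr. With before NHD samples 1 to 3 averaged into 1, the difference was 1.47 ± 0.42 and did not pass (adjusted p = 0.0728). The call after NHD was lost without control array 1 (0.107) or 3 (0.0823), while the difference stayed between 1.43 and 1.79.

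Flt1, the other VEGF receptor of the list, passed in none of the 6 comparisons. Its level was 7.57 and 7.76 on the PE arrays, 6.29, 7.31 and 8.43 (lowest, median, highest) after NHD, 6.23, 6.48 and 8.65 before NHD, and 6.66, 6.92 and 6.87 with control plasma. Before NHD, 4 arrays lay below every control array and 2 above, with none between. After NHD, 2 lay below and 4 above. The difference from control was 0.40 ± 0.52 after NHD (adjusted p = 0.603 by limma) and 0.22 ± 0.52 before NHD (adjusted p = 0.83), with a 95% interval before NHD of -0.89 to 1.32.

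The further VEGF genes were 5 ligands (Vegfa, Vegfb, Vegfc, Vegfd and Pgf), the receptor Flt4 and the co-receptors Nrp1 and Nrp2, all 8 measured. Flt4, the receptor of VEGF-C on lymphatic and growing vessels, was 8.88 and 8.67 on the PE arrays, against a median of 8.03 (7.56 to 8.16) after NHD, 7.57 (7.14 to 8.19) before NHD, and 6.99, 7.16 and 7.0 with control plasma. The highest control array lay just above the lowest before NHD array, and both PE arrays were above all others. Flt4 rose by 1.73 ± 0.25 log2 units with PE against control (adjusted p = 0.00061 by limma), by 0.91 ± 0.19 after NHD against control (adjusted p = 0.00302) and by 1.14 ± 0.22 with PE against before NHD (adjusted p = 0.00909). Before NHD against control it differed by 0.59 ± 0.19 (adjusted p = 0.0822). The 2 calls against control held without any 1 array, and the call against before NHD was lost without PE array 1 (adjusted p = 0.194) or 2 (0.0833).

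Nrp1, a co-receptor of Kdr, rose by 0.74 ± 0.22 after NHD against control (adjusted p = 0.0186), a call lost without control array 1 (0.096) or 3 (0.0817). Vegfa, the main ligand, passed in none of the 6 comparisons, with means of 12.03 with PE, 12.20 after NHD, 12.13 before NHD and 11.93 with control plasma. Over the 8 genes, 2 passed after NHD against control, 1 with PE against control and 1 with PE against before NHD, all higher, beside 16.7%, 11.7% and 2.63% of all genes. The count of 1 in 8 with PE against control is near its background. None passed in the other 3 comparisons, where 2 (before NHD against control), 1 (PE against after NHD) and 0 (after against before NHD) had an unadjusted p below 0.05. Among all 29214 probe sets, 7324, 3448 and 5402 did, in the same order.

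Tek and Tie1 passed limma's test between no pair of groups. Tek was 7.68 and 7.24 on the PE arrays, 5.79, 6.57 and 7.27 after NHD (lowest, median, highest), 5.71, 6.24 and 7.57 before NHD, and 7.09, 7.14 and 6.99 with control plasma. Both PE arrays were above all control arrays, and 4 of 6 arrays in each uremic plasma group were below them. Its differences were -0.57 ± 0.42 after NHD (adjusted p = 0.335) and -0.56 ± 0.42 before NHD (adjusted p = 0.416) against control, and 0.96 ± 0.48 for PE against after NHD (adjusted p = 0.467). Tie1 stayed within 5.90 to 6.34 on all 17 arrays, with means of 6.30 with PE, 6.14 after NHD, 6.14 before NHD and 6.15 with control plasma.

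Of the further genes around the Tie receptors, Angpt1, Angpt2 and Angptl4 were measured and Ptprb and Svep1 were not analysed here. Of the 3, 0 passed limma's test in any of the 6 comparisons, with 0 to 1 at an unadjusted p below 0.05 in each. Angpt1, the activating ligand of Tek, was 6.34 and 5.88 on the PE arrays, against a median of 7.19 (5.84 to 7.41) after NHD, 7.82 (5.29 to 8.43) before NHD, and 5.56, 6.29 and 6.11 with control plasma. Of the uremic plasma arrays, 10 lay above every control array. The difference before NHD against control was 1.29 ± 0.53 (limma's unadjusted p = 0.0279, adjusted p = 0.149). Angpt2, a ligand that can oppose it, differed by 0.42 ± 0.28 in the same comparison (adjusted p = 0.353).

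Eng had the widest spread of the 9 genes. It was 10.80 and 10.60 on the PE arrays, 8.0, 9.64 and 10.48 after NHD (lowest, median, highest), 7.85, 8.71 and 10.96 before NHD, and 9.66, 9.75 and 9.82 with control plasma. The control arrays lay close together, and no uremic plasma array fell among them: 3 after NHD and 4 before NHD were below, 3 and 2 above. Eng differed from control by -0.40 ± 0.68 after NHD (adjusted p = 0.691) and by -0.49 ± 0.68 before NHD (adjusted p = 0.682). The 95% interval of the difference before NHD ran from -1.93 to 0.94, so that a change of 1 unit upward lay outside it and one downward inside.

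Within groups the SD of Eng was 0.15 with PE, 1.08 after NHD, 1.34 before NHD and 0.08 with control plasma. Of all probe sets, 0.175% had an SD as large after NHD and 0.486% before NHD, and 75.7% among the control arrays. Flt1 (SD 0.82 after NHD, 1.03 before NHD, 0.14 with control plasma) and Tek (0.60, 0.86 and 0.08) shared this pattern. Kdr had an SD of 1.09 before NHD, with its highest values on arrays 1 and 2, against arrays 3 and 6 for Eng. Cdh5, Tie1 and Nos3 had SDs before NHD of 0.11, 0.14 and 0.14, below the median probe set.

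Eng, Tek and Flt1 were high and low on the same arrays. Of the 12 uremic plasma arrays, the 5 lowest for Eng (before NHD 2, 4 and 5, after NHD 2 and 4) were also the 5 lowest for Tek and for Flt1. The 2 highest before NHD arrays, 3 and 6, were shared by Eng, Tek, Flt1, Tie1 and Esam. Kdr was instead highest before NHD on arrays 1 and 2, and array 2 was among the lowest for Eng.

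Over the 17 arrays, which share the normalization, Pearson's r was 0.95 between Eng and Tek, 0.90 between Eng and Flt1, 0.83 between Eng and Esam, 0.69 between Eng and Tie1 and 0.68 between Eng and Pecam1, against 0.04 between Eng and Kdr. These values are given as descriptions only. Kdr's r with the other 8 genes ran from -0.12 to 0.18, and from -0.43 (with Cdh5) to 0.18 after subtraction of group means.

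Fibroblast markers varied with Eng, Tek and Flt1. The list held 11 genes, all measured, among them Col1a1, Col3a1, Pdgfra, Dcn and Postn. Its mean level was 9.57 to 9.82 with PE, 7.14 to 9.45 after NHD, 6.89 to 9.56 before NHD and 7.96 to 8.09 with control plasma. The 6 lowest uremic plasma arrays of the list and of Eng were the same. Its r over the 17 arrays was 0.94 with Eng, 0.92 with Flt1 and 0.87 with Tek, against 0.16 with Kdr and 0.37 with Cdh5. After subtraction of group means these were 0.98, 0.96, 0.96, 0.09 and 0.11. Smooth muscle and pericyte markers (11 of 11 measured) and leukocyte markers (10 of 10) varied with Eng too, with r of 0.95 and 0.86. So did epicardial markers (6 of 7, r of 0.82) and platelet markers (7 of 9, r of 0.67), and the likeness was not particular to fibroblast markers. The part of any of these cells in the levels of Eng, Tek and Flt1 was not tested.

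**Figure D2:**
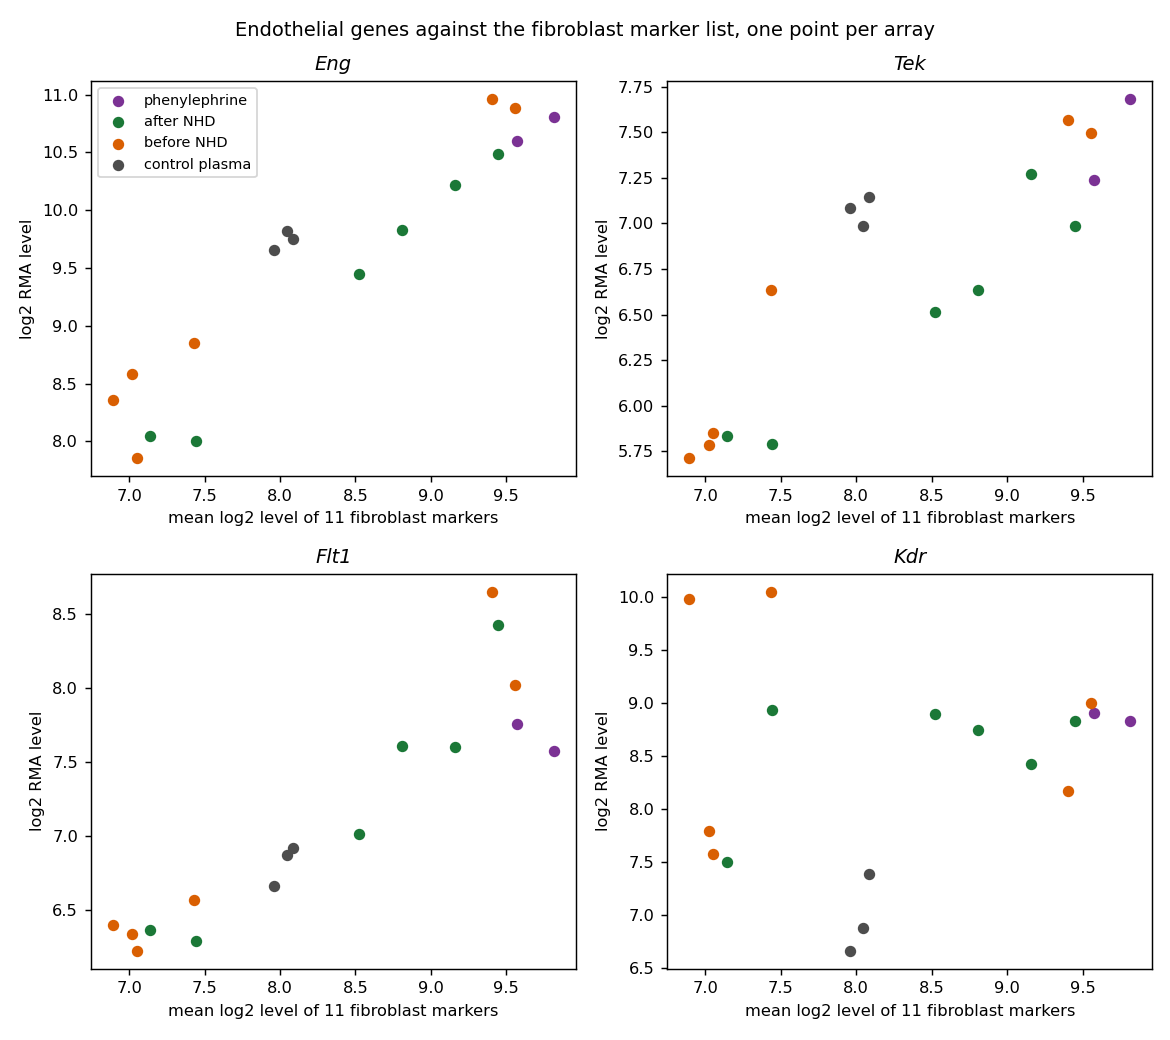
Log2 RMA level of Eng, Tek, Flt1 and Kdr (vertical axes) against the mean log2 level of 11 fibroblast marker genes (horizontal axis), 1 point per array, coloured by group. Eng, Tek and Flt1 climb with the list over the 17 arrays (r of 0.94, 0.87 and 0.92), and Kdr does not (0.16).

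Among the 14412 genes searched, which leave out provisional names, those with the highest r to Kdr over the 17 arrays were Rasa1 (0.962), Abhd1 (0.957) and B4galt6 (0.952). After subtraction of group means these were 0.960, 0.942 and 0.954. For Cdh5 they were Ly6c (0.882), Tmem132d (0.846) and Mpeg1 (0.834), and 0.612, 0.769 and 0.533 after subtraction of group means. For Eng, added to this search after its values were seen, they were Mfap4, a microfibril protein (0.993), Col5a2, a collagen chain (0.984), and Mmp14, a matrix protease (0.984), with 0.993, 0.984 and 0.982 after subtraction. Kdr had an r of 0.64 with the mean of the myocyte list, against -0.27 for Eng and -0.05 for Flt1, and after subtraction of group means these were 0.43, -0.35 and -0.42.

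Of the endoglin pathway, 12 of 13 genes were measured. After NHD against control, 1 rose and 4 fell, with PE against control 0 rose and 2 fell, and with PE against before NHD 1 fell. Among all genes, 16.7% rose and 16.3% fell after NHD, 11.7% and 11.9% with PE against control, and 3.14% fell with PE against before NHD, so that the 2 of 12 with PE are near the background. Id2, a target of this pathway that encodes an inhibitor of basic helix-loop-helix factors, fell by 1.87 ± 0.35 after NHD (adjusted p = 0.00129 by limma) and fell by 2.46 ± 0.45 with PE (adjusted p = 0.00185), both against control. It fell by 1.49 ± 0.40 with PE against before NHD (adjusted p = 0.0458). Smad5, a signal carrier of bone morphogenetic proteins, fell by 0.72 ± 0.15 after NHD and by 0.78 ± 0.19 with PE against control. Smad4, the shared partner of the Smad proteins, fell by 0.42 ± 0.10 after NHD, and Gdf2, which encodes the endoglin ligand BMP9, by 0.32 ± 0.10. The 1 that rose after NHD, named after its values were seen, was Bmp10, a further ligand (1.12 ± 0.39, adjusted p = 0.0397, lost in 7 of 17 fits without 1 array, up to 0.117). Without 1 array, the call of Id2 for PE against before NHD was lost in 14 of 17 fits (adjusted p up to 0.334) and with before NHD samples 1 to 3 averaged (0.108), that of Smad5 with PE without either PE array (0.0683 and 0.08) and that of Gdf2 without control array 1 (0.0505) or 3 (0.102), while the other calls named here held.

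Acvrl1, the receptor that endoglin assists, passed nowhere, with means of 7.52 with PE, 6.99 after NHD, 6.69 before NHD and 6.71 with control plasma. The pathway is used by many cell types, so its members are not endothelial markers. After against before NHD and before NHD against control, 0 of the 12 passed, with 4 and 2 at an unadjusted p below 0.05, and 0 passed for PE against after NHD, with 1.

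Cdh5, which encodes VE-cadherin, was higher under PE than in every other group. Its level was 6.75 and 6.78 on the PE arrays, against 6.07, 6.15 and 6.31 (lowest, median, highest) after NHD, 6.23, 6.32 and 6.54 before NHD, and 6.28, 6.15 and 6.32 with control plasma. No other array reached either PE array. Among all genes, both PE arrays were above every before NHD array for 8.11% and above every after NHD array for 12.5%. The differences were 0.51 ± 0.11 against control (1.42-fold, adjusted p = 0.00547 by limma), 0.59 ± 0.10 against after NHD (1.5-fold, adjusted p = 0.00936) and 0.41 ± 0.10 against before NHD (1.33-fold, adjusted p = 0.0276). All 3 comparisons share the PE arrays.

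With PE, Kdr and Cdh5 were the 2 of 9 genes to pass against control, where 11.7% of all genes were higher and 11.9% lower. Against before NHD and against after NHD, Cdh5 was the 1 of 9, where 2.63% and 0.662% of all genes were higher and 3.14% and 0.689% lower. The call of Kdr was lost in 10 of the 17 fits without 1 array, without PE array 1 or 2 at 0.172 and 0.191 and without control array 1, 2 or 3 at 0.126, 0.0532 and 0.105. Leaving out PE array 2 ended the call of Cdh5 against control (adjusted p = 0.0571). Leaving out PE array 1 or 2 ended it against before NHD (differences of 0.42 and 0.39) and after NHD (0.60 and 0.57). Such fits leave 1 PE array, which is assumed to vary like the other groups. Far fewer of all probe sets passed in them, so these losses were not particular to Cdh5. Leaving out before NHD array 2 ended the call against before NHD as well (0.0533).

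Flt1, Tek, Tie1 and Eng were also higher on both PE arrays than on every control array, without passing, an arrangement that 29.9% of all genes showed. Their differences were 0.85 ± 0.67, 0.39 ± 0.54, 0.16 ± 0.12 and 0.96 ± 0.87 log2 units. In a fit of the PE and control arrays alone, which leaves the wide uremic plasma groups out of the error, Eng (adjusted p = 0.00142) and Flt1 (adjusted p = 0.0032) passed as well. That fit called 9072 of 29214 probe sets, against 5471 in the fit of all arrays. The fibroblast list had a median difference of 1.80 in the same comparison in the fit of all arrays. There 1 of its 11 genes passed the threshold, and 4 had an unadjusted p below 0.05 by limma. Among all genes 11.7% rose, so that the 1 of 11 is near the background.

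The median difference of the 9 endothelial genes was 0.39 with PE against control, where that of all genes was -0.06. It was 0.41 against before NHD and 0.36 against after NHD, where all genes had -0.01 and -0.00. In the 3 plasma comparisons it was 0.00 after against before NHD, -0.06 after NHD against control and -0.06 before NHD against control, beside -0.01, -0.07 and -0.05 for all genes. The comparisons share arrays and are given side by side only.

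**Figure D3:**
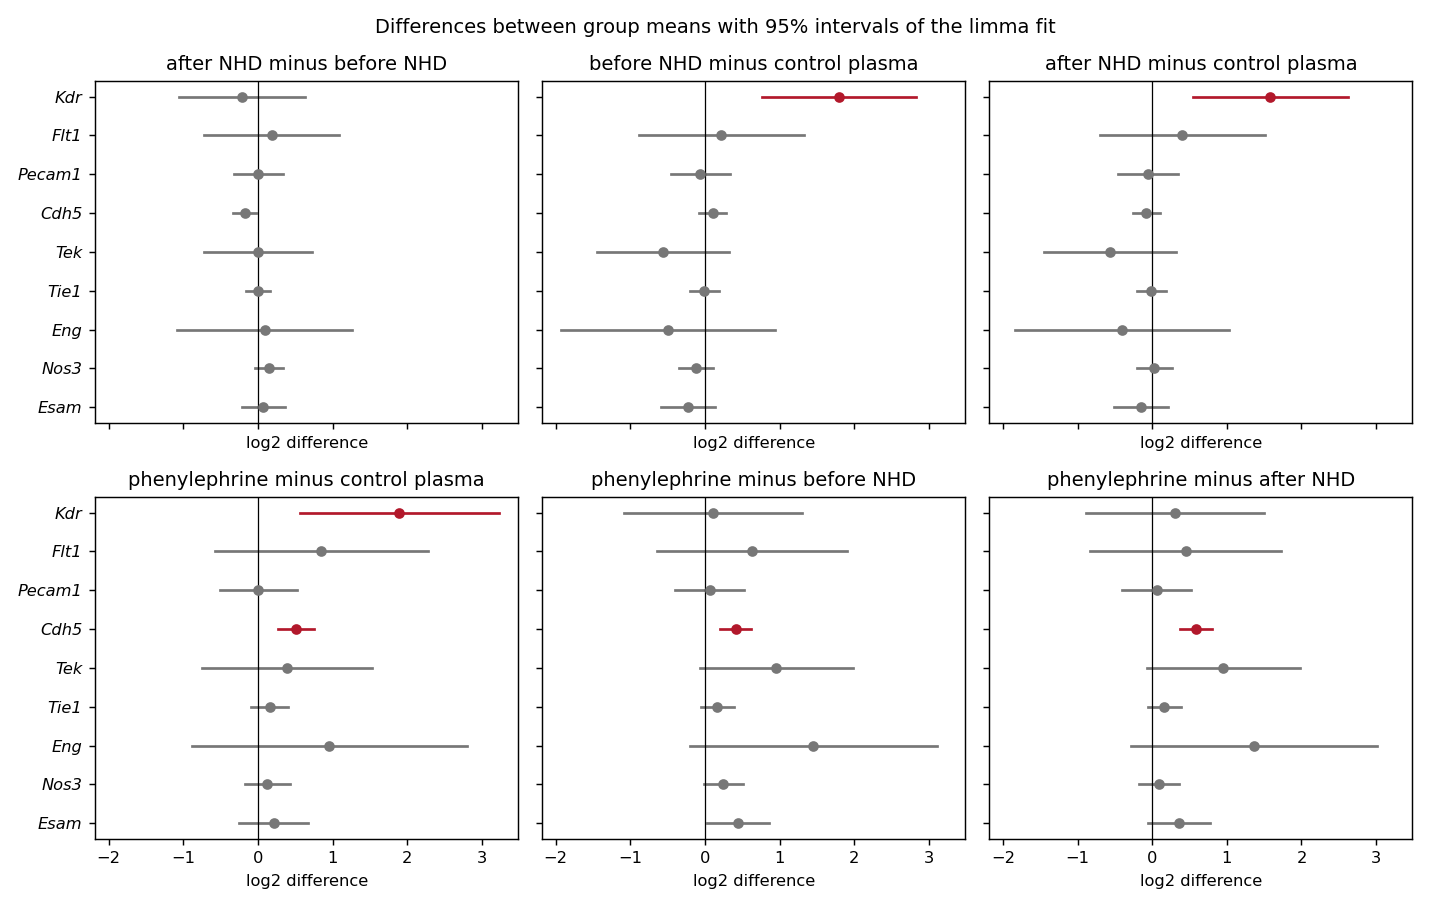
Differences between group means (horizontal axis, log2 units, first group minus second) for the 9 endothelial marker genes in the 6 comparisons, with 95% intervals of the limma fit of 17 arrays; red marks an adjusted p below 0.05. Kdr passes in the 3 comparisons with control, Cdh5 in the 3 with PE, and the intervals of Eng, Flt1, Tek and Kdr are several times wider than those of Cdh5, Tie1 and Nos3.

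After against before NHD, 0 of the 9 genes passed limma's test, where 0.379% of all genes were higher and 0.103% lower. Cdh5 was the 1 gene with an unadjusted p below 0.05, at -0.18 ± 0.07 (limma's unadjusted p = 0.0212, adjusted p = 0.182). Its after NHD arrays reached up to 6.31 and its before NHD arrays down to 6.23, so the groups overlapped. The intervals were narrow for Tie1 (-0.16 to 0.16), Nos3 (-0.04 to 0.34) and Pecam1 (-0.32 to 0.33), whose signal may in part be background. The intervals were wide for Eng (-1.08 to 1.26) and Flt1 (-0.72 to 1.09), where a doubling lay inside.

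Pecam1, Esam and Nos3 passed in no comparison. Pecam1, an adhesion protein shared with platelets and leukocytes, was 6.46 and 6.65 on the PE arrays, 6.25 to 6.79 after NHD (median 6.49), 5.84 to 7.0 before NHD (median 6.57), and 6.67, 6.61 and 6.37 with control plasma. Esam was 7.33 and 7.25 with PE, 6.74 to 7.26 after NHD (median 6.87), 6.50 to 7.34 before NHD (median 6.81), and 6.95, 6.97 and 7.31 with control plasma. Its difference for PE against before NHD was 0.44 ± 0.20 (adjusted p = 0.229 by limma). Nos3 was 7.14 and 6.67 with PE, 6.70 to 6.89 after NHD, 6.48 to 6.83 before NHD, and 6.87, 6.65 and 6.81 with control plasma. Its largest difference, 0.25 ± 0.13 for PE against before NHD, had an adjusted p of 0.303.

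Of the partners of the nitric oxide synthase and the genes of nitric oxide metabolism, 15 of 16 were measured. Before NHD against control 0 rose and 1 fell, and after NHD against control 2 rose and 3 fell. Among all genes 2.09% fell before NHD, and 16.7% rose and 16.3% fell after NHD, so that the counts after NHD are near the background. Ddah2, an enzyme that breaks down the synthase inhibitor dimethylarginine, fell by 0.63 ± 0.15 before NHD (adjusted p = 0.0313 by limma) and by 0.51 ± 0.15 after NHD (adjusted p = 0.0168). Ddah1, which does the same, rose by 0.66 ± 0.18 after NHD (adjusted p = 0.0112). Cav1, which encodes the caveolar protein that holds the synthase inactive, rose by 1.67 ± 0.50 after NHD against control (adjusted p = 0.0207), and Prkg1, the cyclic GMP-dependent kinase, fell by 0.75 ± 0.15 (adjusted p = 0.00242). Nostrin, a trafficking partner of the synthase named after its values were seen, fell by 0.59 ± 0.18 (adjusted p = 0.0241), and without control array 1 (0.0669) or 3 (0.124) it did not pass. Its means were 5.13 after NHD and 5.72 with control plasma, near the lower quartile of all values. Part of its signal may therefore be background. Without 1 array, the call of Ddah2 before NHD was lost without before NHD array 2 (0.0641) or control array 1 (0.178), 2 (0.0546) or 3 (0.14) and with before NHD samples 1 to 3 averaged (0.0593), that of Ddah2 after NHD without control array 1 (0.0913) and that of Cav1 without control array 1 (0.0693) or 3 (0.0735). In the other 4 comparisons 0 passed, with 2 to 4 genes at an unadjusted p below 0.05, and most of these genes are also made by muscle cells and fibroblasts.

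Of further junction and surface genes of endothelium, 26 of 29 were measured. With PE, 4 rose and 1 fell against control, where 11.7% of all genes rose and 11.9% fell, so that the 4 of 26 are near the background. With PE, 5 rose and 0 fell against before NHD and 2 rose and 0 fell against after NHD, where 2.63% and 0.662% of all genes rose. Cd34, a surface sialomucin of endothelial and stromal precursor cells, was 9.09 and 8.73 on the PE arrays, against a median of 6.99 (5.80 to 7.69) after NHD, 6.05 (5.67 to 7.68) before NHD, and 6.27, 6.21 and 6.40 with control plasma. Both PE arrays stood above all others by more than 1 unit. The difference was 2.62 ± 0.60 against control (adjusted p = 0.00751 by limma) and 2.40 ± 0.54 against before NHD (adjusted p = 0.0182). The first call was lost without PE array 1 (0.0783) and the second without PE array 1 (0.265) or 2 (0.143).

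Aqp1, a water channel of capillaries, rose by 1.21 ± 0.20 with PE against control, by 1.18 ± 0.18 against before NHD and by 1.04 ± 0.18 against after NHD (adjusted p of 0.000973, 0.00184 and 0.00936 by limma). Cd93, a receptor of endothelial and myeloid cells, rose by 1.01 ± 0.23 against control and 0.94 ± 0.21 against before NHD. S1pr1, the sphingosine 1-phosphate receptor that steadies vessels, rose by 1.81 ± 0.41 with PE (adjusted p = 0.00695) and by 0.97 ± 0.32 after NHD (adjusted p = 0.032), both against control. The call of Aqp1 against control held without any 1 array. Leaving out PE array 1 or 2 ended those of S1pr1 with PE against control (0.0676 and 0.0529), Cd93 against before NHD (0.265 and 0.136) and Aqp1 against after NHD (0.303 and 0.0999), and PE array 1 alone those of Cd93 against control (0.0824) and Aqp1 against before NHD (0.0737). S1pr1 after NHD was lost without control array 1 (0.128) or 3 (0.114) or after NHD array 2, 4 or 6 (0.0532, 0.055 and 0.0592). Cldn5, the endothelial tight junction protein, passed in none of the 6 comparisons, with means of 6.40, 6.35, 6.22 and 6.42 with PE, after NHD, before NHD and with control plasma.

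**Figure D4:**
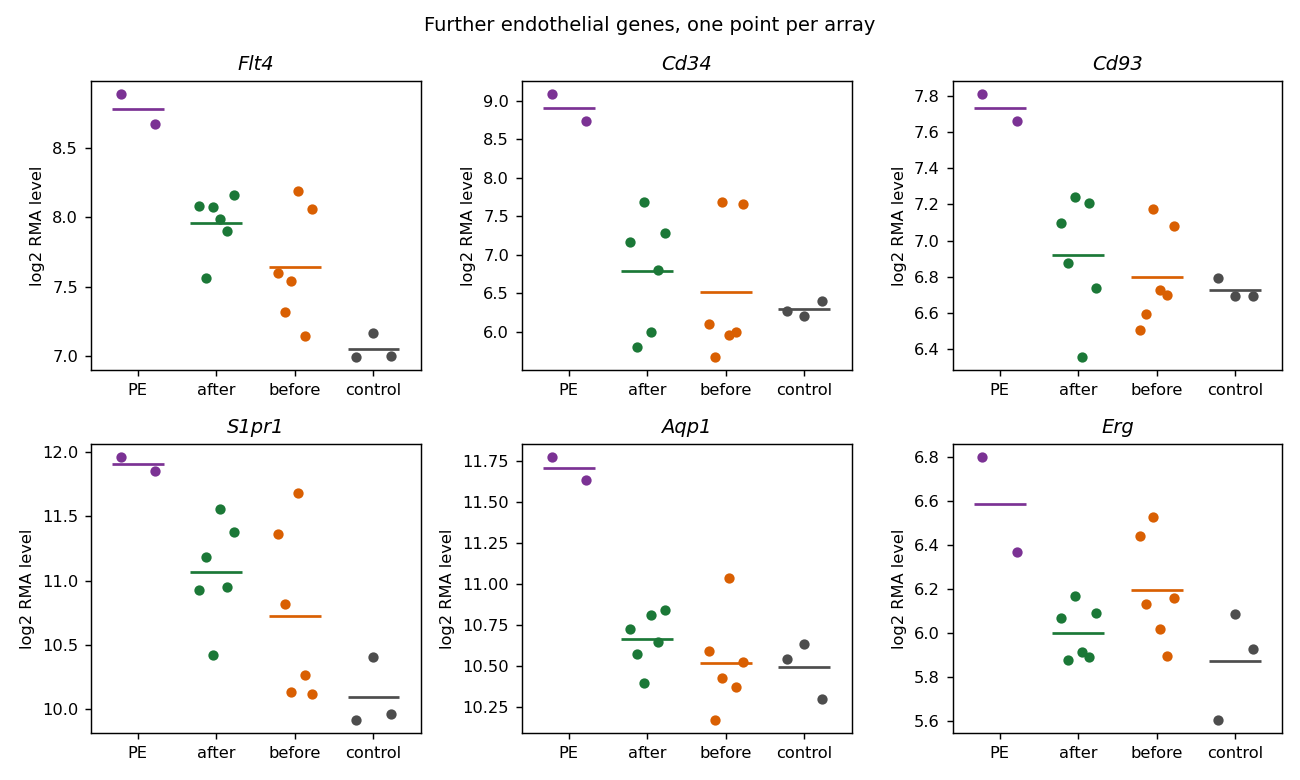
Log2 RMA level (vertical axis, with its own range in each panel) of Flt4, Cd34, Cd93, S1pr1, Aqp1 and Erg, 1 point per array, in PE (2 arrays), after NHD (6), before NHD (6) and control plasma (3); the line is the group mean. The 2 PE arrays are the highest for Flt4, Cd34, Cd93, S1pr1 and Aqp1, with S1pr1 at 11.85 and 11.96. All 6 genes shown had passed as higher with PE against control. Genes of the same lists that fell there, such as Jam3, Klf4 and Hey2, are not shown.

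Jam3, a junctional adhesion molecule also found outside endothelium, was the 1 gene of the surface list to pass after against before NHD. It was 1 of 26 measured, where 0.103% of all genes fell and 0.379% rose. It ran from 9.29 to 9.70 after NHD (median 9.47), against 9.39 to 11.16 before NHD (median 10.77), with 9.87 and 9.72 on the PE arrays and 11.04, 11.05 and 10.98 with control plasma. The before NHD array 4 lay within the after NHD range and the other 5 above it. Jam3 fell by 1.08 ± 0.22 after against before NHD (adjusted p = 0.0441 by limma) and fell by 1.54 ± 0.27 after NHD against control (adjusted p = 0.000918). Mcam fell by 0.81 ± 0.21 after NHD against control and rose by 1.31 ± 0.24 with PE against after NHD (adjusted p of 0.00945 and 0.015). The call of Jam3 after against before NHD was lost in 14 of the 17 fits without 1 array (adjusted p up to 0.129) and with before NHD samples 1 to 3 averaged (0.298), and that after NHD against control held in all of them. With PE against before NHD Mcam rose by 0.96 ± 0.24 (adjusted p = 0.0328). Its call after NHD was lost without control array 1 (0.0507), that against after NHD without PE array 1 (0.453) or 2 (0.0826), and that against before NHD without either PE array or before NHD array 2 (up to 0.441). With PE against control, the 1 gene that fell was also Jam3 (-1.23 ± 0.35, adjusted p = 0.0213, and 0.0502 to 0.137 without control array 1 or 3 or either PE array), and the fifth that rose with PE against before NHD was Plvap, a protein of endothelial pores (0.46 ± 0.12, adjusted p = 0.0382, lost in 10 of 17 fits without 1 array, up to 0.378). Both were named after their values were seen. Apln, which encodes the vascular peptide apelin, rose by 0.37 ± 0.11 after NHD against control (adjusted p = 0.0187, lost without control array 2 or 3 at 0.0855 and 0.0527). In all, 2 of the 26 genes rose and 2 fell after NHD against control, where 16.7% of all genes rose and 16.3% fell, and 0 passed before NHD against control, with 4 at an unadjusted p below 0.05.

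Of the coagulation and vasoactive genes made by endothelium, 10 of 12 were measured, and 3 rose and 3 fell after NHD against control, where 16.7% of all genes rose and 16.3% fell. Thbd, which encodes the anticoagulant thrombomodulin, rose by 0.98 ± 0.21 and Tfpi, the inhibitor of tissue factor, by 0.65 ± 0.15. Procr, the protein C receptor, fell by 0.84 ± 0.18 and Ptgs2, an inducible prostaglandin synthase, by 2.09 ± 0.45, with adjusted p between 0.00263 and 0.0046 by limma for these 4. F8, coagulation factor VIII, fell by 0.93 ± 0.22 (adjusted p = 0.00543) and Ptgis, the prostacyclin synthase, rose by 1.53 ± 0.44 (adjusted p = 0.017, lost without control array 1 at 0.0607 or 3 at 0.0834), both named here after their values were seen. With PE against control 3 rose and 1 fell, where 11.7% and 11.9% of all genes did: Ptgis (2.26 ± 0.57), Tfpi (0.72 ± 0.19), Ace (1.59 ± 0.46) and Ptgs2 (-2.17 ± 0.58). The other calls after NHD held without any 1 array. With PE, Ptgis was lost without PE array 1 (0.144), Tfpi without control array 1 or either PE array (up to 0.134), and Ace and Ptgs2 without control array 1 or 3 or either PE array (adjusted p up to 0.167 and 0.115). Edn1, endothelin, passed in none of the 6 comparisons, with SEs of 0.72 to 1.14. In the 4 comparisons not named 0 genes of the list passed, with 2 to 6 at an unadjusted p below 0.05.

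Of the endothelial transcription factors, 18 of 21 were measured. Erg, an ETS factor of endothelium, was 6.80 and 6.37 on the PE arrays, against 5.88 to 6.17 after NHD, 5.89 to 6.53 before NHD, and 5.61, 6.09 and 5.93 with control plasma. It rose by 0.71 ± 0.19 with PE against control (adjusted p = 0.0168 by limma), the 1 of 18 that rose there, while Klf4 and Hey2 fell by 1.10 ± 0.30 and 0.78 ± 0.22. After NHD against control Prox1, a factor of lymphatic endothelium and also of cardiac muscle, rose by 1.26 ± 0.29 and Klf4 fell by 0.83 ± 0.23. Hey2 fell by 0.80 ± 0.19 with PE against before NHD. Counts of 1 or 2 in 18 are at or below the shares of all genes after NHD (16.7% higher, 16.3% lower) and with PE against control (11.7% and 11.9%), and 3.14% of all genes fell with PE against before NHD. Prox1 held without any 1 array. Erg was lost without control array 1 (0.0734) or PE array 1 (0.214), Klf4 after NHD without control array 2 (0.0798) and with PE without that array or either PE array (up to 0.136), and Hey2 without either PE array, control array 1 or before NHD array 2 (up to 0.14 against control and 0.312 against before NHD). Fli1, a further ETS factor, passed nowhere. In the other 3 comparisons 0 passed, with 0 (after against before NHD), 3 (before NHD against control) and 3 (PE against after NHD) at an unadjusted p below 0.05. Among all 29214 probe sets these were 5402, 7324 and 3448.

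Of the 7 endothelial Notch genes, all measured, Jag2, a Notch ligand, was the 1 to pass, a share near the 16.7% of all genes that rose after NHD and the 11.7% that rose with PE against control. It rose by 0.57 ± 0.13 after NHD (adjusted p = 0.00377 by limma) and by 0.53 ± 0.16 with PE (adjusted p = 0.033), both against control. The call after NHD held without any 1 array, and that with PE was lost without any 1 of the control or PE arrays (adjusted p up to 0.276). In the other 4 comparisons 0 passed, with 0 to 3 at an unadjusted p below 0.05.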

How the data were processed

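RNA of 17 samples was read on 1 Affymetrix array each. The authors deposited log2 values made with RMA, per the submitters' processing notes, which subtracts background, makes the arrays' distributions alike and summarises probes, and so removes shifts common to most genes. The RMA version and genome build were not given in the sources used here, and the scale was read from the range of values. Names came from the platform annotation of the probe sets (15310 with 1 symbol, 323 with several, 13581 with none). Symbols were updated through an NCBI RefSeq table (GRCr8), which held 15279 of them, and the probe set of highest mean stood for a gene. Promoters are RefSeq's.

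All 29214 probe sets were tested with limma 3.58.1 (R 4.3.3; lmFit, eBayes) in 1 fit of the 4 groups, with 13 residual and 3.32 prior degrees of freedom. The procedure was tested on simulated data with independent noise of the same SD in every group. That simulation does not copy the unequal scatter of the groups and cannot show its effect on these tests. P-values are two-sided and adjusted by the Benjamini-Hochberg method over all probe sets, with a threshold of 0.05. Of all probe sets, 5402 had an unadjusted p below 0.05 after against before NHD, 7324 before NHD against control and 11533 after NHD against control. With PE these were 9442 against control, 5605 against before NHD and 3448 against after NHD. Counts of list genes at that level are to be read beside these. The error pools the groups, so comparisons with PE borrow from the others. The number of arrays limits the precision.

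Members and lists were chosen with earlier results of these data known. All members were named, with up to 4 genes of each pathway list that passed in a comparison, by smallest p, and 11 further genes in every comparison where measured. Genes of the cell type marker lists were picked after their values were seen. Alternatives were only the compared groups, a replicate block, median centring, quantile normalization run again, the brighter probe sets (from the median mean level upward), tests at gene level, a trended robust prior, array weights, the array SD as a covariate, no samples numbered 4, every array omitted in turn, a minimum change of 1.5-fold and, added after the data were seen, before NHD samples 1 to 3 averaged into 1.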

Additional observations from a re-analysis of the deposited data

Results flagged for a closer look

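Kdr on the after NHD array 4 was 7.50, apart from the other 5 after NHD arrays at 8.43 to 8.93. Its gap to the nearest of them was 0.648 of the range of the group, above Dixon's critical value of 0.625 for 6 samples. Of the 18 groups of 6 arrays examined this was the 1 found, and chance gives about 1 in 20. Without that array, and also without both samples numbered 4, Kdr still passed against control after NHD.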

How the results depend on the processing

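Each difference was recomputed under 29 settings, 17 of which left out 1 array. Of 1530 recomputed values 79 had the opposite sign, none of them of a difference that passed, and the largest of these was 0.40 in size originally. After against before NHD, 0 members passed under every setting run. With only the compared groups and with before NHD samples 1 to 3 averaged, 0 of 29214 probe sets passed. The same held without before NHD array 1, 2 or 3 and without after NHD array 1, 2, 3, 5 or 6. No member could pass in those settings, so they say nothing about the members. Before NHD against control, 0 passed with only the compared groups, with the array SD as a term and, an alternative added after the data were seen, with before NHD samples 1 to 3 averaged into 1. Of all 29214 probe sets, 0, 2 and 319 passed in these settings, in that order. After NHD against control, 0 passed with the array SD as a term. For PE against control, 1 passed on the brighter probe sets and with a 1.5-fold minimum (Kdr) and with the array SD as a term (Cdh5), and 4 with only the compared groups (Kdr, Flt1, Cdh5 and Eng). In that last setting 9072 of 29214 probe sets passed, against 5471 originally. For PE against before NHD, 0 passed on the brighter probe sets, after a second quantile normalization, with median centring, with only the compared groups and with a 1.5-fold minimum. For PE against after NHD, 0 passed on the brighter probe sets. Cdh5 is not among these and was not tested there. Leaving out 1 array gave 0 to 1 members before NHD against control, 0 to 1 after NHD against control, 0 to 2 for PE against control, 0 to 1 for PE against before NHD and 0 to 1 for PE against after NHD. Over all settings, adjusted p of Kdr against control ran from 0.000788 to 0.209 before NHD, from 0.000107 to 0.107 after NHD and from 0.000557 to 0.191 with PE. That of Cdh5 ran from 0.000167 to 0.0571 for PE against control, from 0.00352 to 0.253 against before NHD and from 8.8e-05 to 0.25 against after NHD. Kdr with PE against control was lost in 10 of the 17 fits without 1 array. Of 98 calls of list genes recomputed in the same way, some of them not named in the text, 31 held in all 17 fits without 1 array and 67 were lost in at least 1, with 0 values reversed. With samples 1 to 3 averaged, 88 of the 98 held. Causes were not tested. Another probe set of a member could not be tried, since each has 1.

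The labels do not say whether same-numbered before and after NHD samples share a source, and the main fit did not pair them. Over all probe sets, their deviations from the group means correlated above 0.1 in 4 of 6 pairs. Pearson's r was 0.42, 0.60, 0.57 and 0.25 for numbers 2, 3, 4 and 6, and 0.099 and -0.025 for 1 and 5. With the replicate block 3 members passed for PE against before NHD (Cdh5, Eng and Esam), and the other 5 counts were those without it. For PE against before NHD, 2447 of 29214 probe sets passed with the block and 1268 without it. For 3 of the 6 numbers the before and the after array were each nearest to the array of their own number, a hint from the data and not from the design.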

Other observations

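Of 11 smooth muscle and pericyte genes, 2 rose and 1 fell with PE against control, where 11.7% of all genes rose and 11.9% fell, and 1 rose (Cspg4, 0.90 ± 0.21) and 1 fell (Cnn1, -1.16 ± 0.29, lost without control array 1 at 0.0526) after NHD against control, where 16.7% and 16.3% did. Rgs5, a pericyte marker, was 8.59 and 8.81 on the PE arrays, against 6.39 to 7.46 after NHD, 6.43 to 7.77 before NHD and 6.91 to 7.20 with control plasma, and it rose by 1.65 ± 0.35, 1.99 ± 0.31 and 1.84 ± 0.31 log2 units against control, after NHD and before NHD (adjusted p of 0.00452, 0.00556 and 0.0039 by limma). Cspg4, the pericyte proteoglycan NG2, rose by 1.40 ± 0.27 against control, and Acta2 fell by 0.40 ± 0.12. Of 6 epicardial genes 3 rose with PE against control, beside 11.7% of all genes: Aldh1a2 by 1.49 ± 0.30, Upk1b by 1.59 ± 0.46 and Krt19 by 0.87 ± 0.22. Leaving out a PE array ended these calls in part: Rgs5 against control without PE array 2 (0.0562), against before NHD (0.0767 and 0.0833) and after NHD (0.161 and 0.111) without either, Cspg4 without PE array 2 (0.0516), Aldh1a2 without PE array 1 (0.0641), and Krt19 without either (0.0995 and 0.081). Upk1b and Acta2 were lost without either PE array or control array 1 or 3 (adjusted p up to 0.148 and 0.143).

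Of the fibroblast list, S100a4 was the 1 gene to pass after against before NHD, at 1.03 ± 0.20 (adjusted p = 0.04 by limma), a call lost in 14 of 17 fits without 1 array (up to 0.117) and with before NHD samples 1 to 3 averaged (0.26), and S100a4 is made by other cells too. All 9 measured genes of dividing cells rose after against before NHD, after NHD against control, with PE against control and with PE against before NHD, with median differences of 2.22, 2.98, 3.52 and 2.77. Among all genes 0.379%, 16.7%, 11.7% and 2.63% rose, in the same order. After against before NHD, the calls of Top2a, Ccnb2, Plk1 and Kif20a were lost in 8 of the 17 fits without 1 array (up to 0.0957) and with before NHD samples 1 to 3 averaged (0.175 to 0.185). In each of these fits 0 of 29214 probe sets passed. With PE against before NHD, the calls of Kif20a, Ccnb1, Ccnb2 and Aurkb were each lost without PE array 2. None of the leukocyte (10 measured), platelet (7) and neural (5) genes passed limma's test in any of the 6 comparisons, with 0 to 3 of each list at an unadjusted p below 0.05. Of 5 erythroid genes, Slc4a1 alone passed, falling by 0.41 ± 0.10 after NHD and by 0.48 ± 0.13 with PE against control. Among all genes 16.3% and 11.9% fell in these comparisons, so that 1 in 5 is near the background. Both calls were lost without control array 1 (0.0519 and 0.0648). The call with PE was also lost without PE array 1 or 2, with differences of -0.44 and -0.52. Of 10 myocyte genes, 5 rose after NHD, 2 before NHD and 2 with PE, each against control, where 16.7%, 3.75% and 11.7% of all genes rose. After NHD these were Ryr2 (1.60 ± 0.29), Myh6 (0.84 ± 0.14), Tnni3 (0.77 ± 0.16), Myh7 (0.35 ± 0.09, lost without control array 3 at 0.0549) and Myl2 (0.59 ± 0.19, lost in 5 of 17 fits, up to 0.0933). Before NHD they were Myh6 (0.67 ± 0.14, lost in 3 of 17 fits, up to 0.148, and at 0.0517 with samples 1 to 3 averaged) and Ryr2 (1.17 ± 0.29, lost in 7, up to 0.173). With PE they were Myh7 (0.53 ± 0.12, lost without PE array 2 at 0.0846) and Ryr2 (1.24 ± 0.37, lost in 4, up to 0.139). Pecam1 is shared with platelets and leukocytes, and the part of any of these cells in the endothelial levels was not tested.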
